A study of Homo sapiens with 54 samples.

Results

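The 13 mRNAs encoded by the mitochondrial genome and 37 nuclear genes of the NDUF family were followed in A549, an established human lung cancer cell line. They were found as 50 of the 58870 genes in the count table, by a rule that used symbols alone. Each gene was read in 54 RNA-seq libraries that fell into 18 groups of 3 replicates. The cells carried either an empty vector (EV) or a vector for USP18, a protease that removes the ubiquitin-like modifier ISG15 from proteins. Both cell types received DMSO as vehicle, or a compound given by its code: CP2 at 2 or 5 µM, CP14 at 1, 2.5 or 5 µM, or CP18 at 1, 2.5 or 5 µM. All were collected after 48 hours. The sources used here do not say how many independent transfectants each cell type comprised, so a difference between EV and USP18 cells cannot be told apart from other differences between the engineered cells. The labels number the replicates without saying that they came from separate cultures. The study's statistics section states that experiments were typically repeated as 3 or more biological replicates, but does not name the RNA-seq there. The p-values therefore measure only the spread between these samples, which may be technical.

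Respiratory complex I, NADH:ubiquinone oxidoreductase, is the entry point for electrons from NADH into the respiratory chain and pumps protons across the inner mitochondrial membrane. It is assembled from subunits made in the mitochondrion (the MT-ND genes) and subunits imported from the cytosol (most NDUF genes). The other mitochondrial mRNAs encode cytochrome b of complex III, subunits of cytochrome c oxidase (complex IV) and subunits of ATP synthase. Mitochondrial DNA is copied into long transcripts that run around the circle and are cut into separate RNAs, mostly at the tRNA genes that lie between the coding genes. MT-ND6 lies alone on the opposite strand from the 12 other mRNA genes, which are called heavy-strand mRNAs below.

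The boundaries on which several results below turn are shown from the human reference genome (GRCh38), each read in the direction of the gene. In the first pair of stretches, from chrM:5482-5541 and chrM:5874-5933 on the plus strand, capitals mark MT-ND2 and MT-CO1. MT-ND2 ended at position 5511 and MT-CO1 began at 5904, and the tRNA genes MT-TW, MT-TA, MT-TN, MT-TC and MT-TY lay in the span between them.
MT-ND2 end: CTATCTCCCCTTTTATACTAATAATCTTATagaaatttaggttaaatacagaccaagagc
MT-CO1 start: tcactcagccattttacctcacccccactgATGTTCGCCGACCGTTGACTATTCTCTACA
The next stretches, chrM:8497-8602 and chrM:10730-10796 on the plus strand, hold the coding overlaps of MT-ATP8 with MT-ATP6 and of MT-ND4L with MT-ND4. Capitals mark the 46 and 7 bases that belong to both genes of each pair. Each pair is carried on a shared mRNA, so reads inside the overlap belong to both, and the authors' counting shared them out.
MT-ATP8 and MT-ATP6: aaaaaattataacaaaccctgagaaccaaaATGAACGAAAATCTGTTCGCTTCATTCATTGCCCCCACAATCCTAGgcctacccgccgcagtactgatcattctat
MT-ND4L and MT-ND4: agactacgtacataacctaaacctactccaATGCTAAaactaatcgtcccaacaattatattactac
The start of MT-ND6 lay on the minus strand at chrM:14644-14703, with capitals marking the gene. Whether the counting used the strand of the reads is not given in the sources used here, so reads from MT-ND6 and from the RNA opposite to it cannot be told apart.
MT-ND6 start: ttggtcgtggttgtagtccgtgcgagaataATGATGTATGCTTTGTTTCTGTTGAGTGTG

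The libraries held 16673228 to 25609062 counts (median 19701304). USP18 itself was at 8.77 to 12.3 CPM (counts per 1000000 of the scaled library size) in the 27 EV libraries. It was at 947 to 2115 CPM in the 27 USP18 libraries, so every library matched the vector given in its label. Within USP18 cells the level of USP18 also moved with treatment. Its log2 fold change from vehicle was 0.64 with CP14 at 5 µM, -0.14 at 2.5 µM and -0.33 at 1 µM. With CP18 it was -0.24 at 5 µM, -0.30 at 2.5 µM and -0.41 at 1 µM, and all of these were called. CP2 at 2 µM gave a smaller called change (-0.09), and that with CP2 at 5 µM (-0.05) was not called. The part of these changes in the differences between cell types below was not tested. Of the epithelial keratins, KRT7 was at 1336 CPM or more, KRT8 at 1264 CPM or more and KRT18 at 1658 CPM or more in every library. KRT19 (3.65 to 50.9 CPM) and EPCAM (1.33 to 14.8 CPM) were low, and CDH1 was at 21.2 to 240 CPM. The T cell gene CD3E had 0 counts in every library, and the leukocyte gene PTPRC had at most 7. The collagen gene COL1A1 had 71 to 346 counts per library. The sources conflict on the RNA that was sequenced, with the labels giving poly(A) selection and the study's methods giving rRNA depletion of total RNA, and the part of this in the levels below was not tested.

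All 50 genes passed the filter on low counts in every comparison. The mitochondrial mRNAs had 705 to 197392 counts per library and the NDUF genes 205 to 3601 counts, so counting error was small for both. In EV cells with vehicle, the mitochondrial mRNAs were far above the NDUF genes per kilobase of exon. MT-CO2 led with 5106 ± 53.4 CPM per kb (SD, n = 3), followed by MT-CO3 at 4567 ± 67.1 and MT-CO1 at 4080 ± 31.9, all subunits of complex IV. The ATP synthase genes MT-ATP6 (3161 ± 57.5) and MT-ATP8 (2888 ± 191) came next. The complex I genes spread from MT-ND4 at 2255 ± 29.4 down to MT-ND5 at 567 ± 14.3 and MT-ND6 at 175 ± 15.2 CPM per kb. Between them stood MT-ND2 (1741 ± 52.3), MT-ND4L (1474 ± 30.3), MT-ND3 (1351 ± 11.8), MT-ND1 (1235 ± 31.8) and MT-CYB (929 ± 17.7). Neighbours in this order lay further apart than the sum of their SDs. In USP18 cells with vehicle the SDs were wider, and the order was the same except that MT-CYB stood above MT-ND1. There the neighbours from MT-CO3 (4092 ± 390) down to MT-ND4 (2178 ± 222), from MT-ND2 (1474 ± 141) down to MT-ND3 (1277 ± 80.3), and MT-CYB (1055 ± 107) with MT-ND1 (932 ± 81.9) lay within the sum of their SDs.

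The NDUF genes had a median of 21.3 CPM per kb in EV cells with vehicle, against 1741 for the mitochondrial mRNAs. NDUFA1, a small membrane subunit, was the highest at 264 ± 2.28 and NDUFS7, a core iron-sulphur subunit, the lowest at 4.12 ± 0.268. The length used was the union of all annotated exons, which is large for NDUF genes with many annotated transcripts (19359 bases for NDUFA10) and lowers their value per kilobase. In all 18 groups the median of the mitochondrial mRNAs stayed above the highest NDUF gene.

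With vehicle, 4 of the 7 mitochondrial mRNAs of complex I and 2 of the 3 of complex IV were lower in USP18 cells than in EV cells. By edgeR's quasi-likelihood test at an adjusted p under 0.05, 6 of the 13 mitochondrial mRNAs were lower in USP18 cells and 1 was higher, where 57.6% of all genes tested were called in either direction, so the count is no larger than that of genes at large. Their median log2 fold change was -0.10, against -0.01 over all genes. MT-ND1, the first coding gene after the rRNAs, stood at 1147, 1192 and 1204 CPM in the EV libraries and at 967, 896 and 810 CPM in the USP18 libraries. The groups did not overlap, with a log2 fold change of -0.41 ± 0.04 (SE, adjusted p = 3.35e-07). MT-CYB, the only mitochondrially encoded subunit of complex III, went the other way at 1041, 1057 and 1081 CPM against 1323, 1211 and 1078 CPM (0.19 ± 0.05, adjusted p = 0.00311). Its lowest USP18 library lay within the EV range. MT-ND2 (-0.24), MT-ND6 (-0.36), MT-CO1 (-0.16), MT-CO3 (-0.16) and MT-ND4L (-0.14) were also lower. MT-ND4L lost its call without EV replicate 2 or 3 or USP18 replicate 2 or 3 (adjusted p 0.0596 to 0.275). MT-RNR1 (-0.55) and MT-RNR2 (-0.31) were lower in USP18 cells as well. Of a list of small RNAs without a poly(A) tail, from which a symbol held by more than 1 identifier was left out, all 5 that passed the filter were also lower (median -2.04), and their part was not tested. The 6 lower calls fell to 3 with DESeq2 and to 2 with all 54 libraries fitted together.

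The share of each library taken by the mitochondrial mRNAs had its lowest group means with CP14 at 5 µM. Over the 54 libraries the 13 mRNAs made up 1.10% to 3.24% of the counts, with a median of 2.51%. EV libraries held 2.459%, 2.497% and 2.518% with vehicle and 1.76%, 1.73% and 1.68% with CP14 at 5 µM. USP18 libraries held 2.59%, 2.39% and 2.13% with vehicle and 1.19%, 1.10% and 1.13% with CP14 at 5 µM. In both cell types the treated libraries lay wholly below the vehicle libraries, and those of USP18 cells below those of EV cells. In USP18 cells the treated libraries were also below every library of the other treatments, while in EV cells a library with CP18 at 1 µM (1.69%) lay within their range. The exact permutation test gave p = 0.1 in each cell type, two-sided, the smallest that 3 against 3 allows. The mitochondrial rRNAs MT-RNR1 and MT-RNR2 moved in the opposite direction, from a mean of 0.766% of counts to 1.17% in EV cells and from 0.619% to 1.63% in USP18 cells. In these bulk samples fewer cells of a type and less RNA per cell cannot be told apart, and all levels are relative to the rest of the library.

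**Figure D1:**
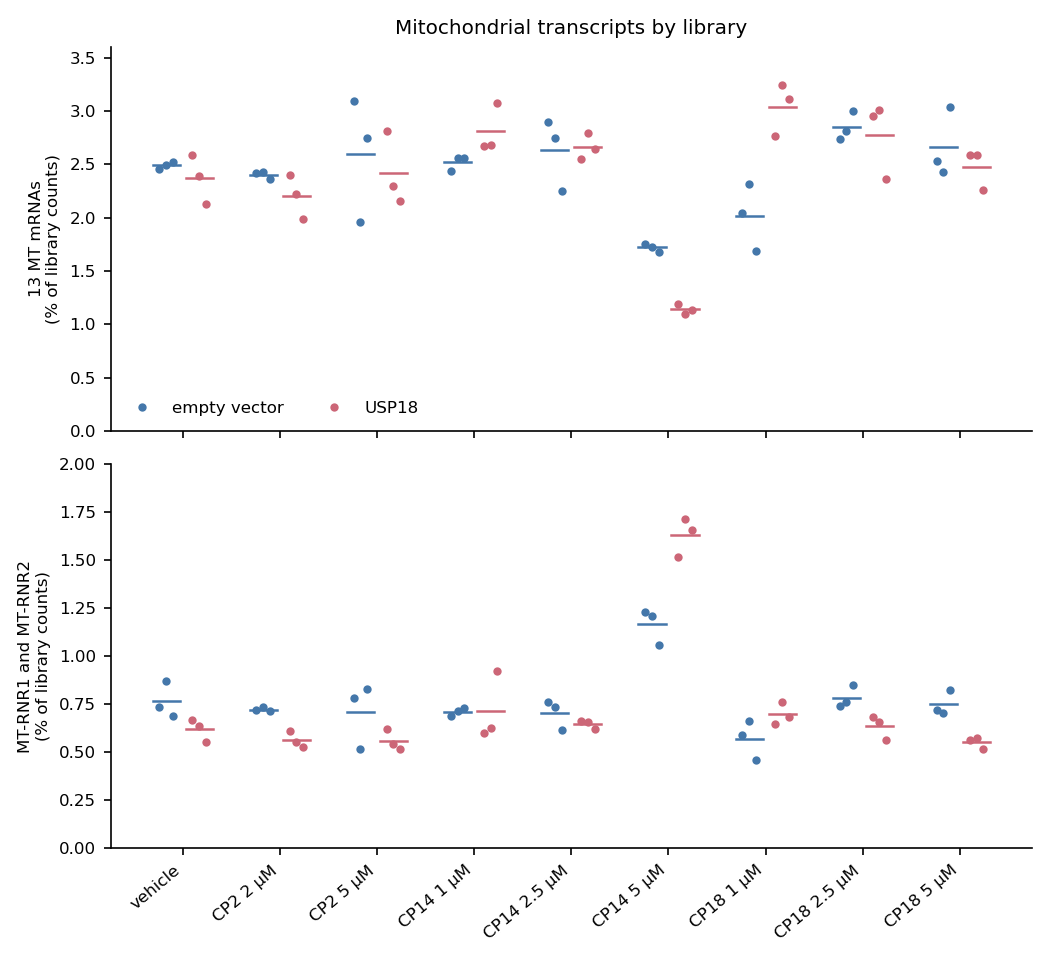
Share of each library's counts (%) from the 13 mitochondrial mRNAs (first panel) and from MT-RNR1 plus MT-RNR2 (second panel), by treatment, with a point per library and a line at the mean of each group of 3, EV in blue and USP18 in red. With CP14 at 5 µM the mRNA share was the lowest of any treatment (means 1.72% in EV and 1.14% in USP18 cells) while the rRNA share was the highest (1.17% and 1.63%).

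CP14 at 5 µM lowered most of the mitochondrial mRNAs. In EV cells the 3 complex IV genes fell the furthest, and in USP18 cells MT-CO2 and MT-CO3 did, followed by MT-ND3 (-1.57), MT-ND5 (-1.53) and MT-CO1 (-1.47). In EV cells 11 of 13 were lower than with vehicle and 2 were higher, and in USP18 cells 11 were lower and 1 was higher. At this dose 63.2% of all genes tested were called in EV cells and 68.6% in USP18 cells, but far fewer fell by more than 2-fold, 7.53% and 8.74%. More than 2-fold falls were seen in 2 of the 13 in EV cells and in 7 of the 13 in USP18 cells. Their median log2 fold change was -0.56 in EV and -1.06 in USP18 cells, while the median over all genes was near 0.01. Of the 6 epithelial markers, KRT8, KRT18, CDH1 and EPCAM were lower in both cell types at this dose, KRT7 was higher in both (0.94 and 1.16), and KRT19 was higher in USP18 cells (0.89) and not called in EV cells (-0.04). The fibroblast markers COL1A1 (-1.01) and COL3A1 (-1.69) were lower in EV cells and COL3A1 (-3.53) in USP18 cells, and the 4 other markers of other cell types did not pass the filter. Of the small RNAs, all 5 that passed the filter were lower in EV cells (median -1.92). None of the 5 was called in USP18 cells by edgeR (median -0.06). The part of these changes in the results was not tested.

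MT-CO2, whose protein holds a copper centre of complex IV, fell the furthest in USP18 cells. It was at 3457, 3491 and 3530 CPM in EV libraries with vehicle and at 1755, 1647 and 1678 CPM with CP14 at 5 µM. In USP18 libraries it went from 3722, 3433 and 3104 CPM to 893, 786 and 827 CPM. Treated and vehicle libraries did not overlap in either cell type, and the treated USP18 libraries were the lowest of the 4 groups. The log2 fold change by edgeR was -1.05 ± 0.05 in EV cells, with an adjusted p of 9.41e-14. It was -2.04 ± 0.05 in USP18 cells, with an adjusted p of 1.80e-18.

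MT-CO3, also of complex IV, fell the furthest in EV cells. Its EV libraries went from 3524, 3628 and 3591 CPM to 1551, 1447 and 1450 CPM, a log2 fold change of -1.28 ± 0.05 (edgeR adjusted p = 1.28e-15). Its USP18 libraries went from 3488, 3254 and 2882 CPM to 1014, 971 and 985 CPM, or -1.70 ± 0.05 (adjusted p = 1.00e-17). MT-CO1, the catalytic subunit of complex IV and the most abundant of the 13 in CPM, stood at 6309, 6236 and 6330 CPM with vehicle and 3412, 3333 and 3291 CPM with CP14 in EV cells. In USP18 cells it stood at 6068, 5724 and 5108 CPM and then at 2152, 1955 and 2038 CPM. For MT-CO1, MT-CO2 and MT-CO3 treated and vehicle libraries did not overlap in either cell type. Of all genes tested, 63.2% in EV and 68.6% in USP18 cells were called at this dose. MT-CO1 changed by -0.92 and -1.47 on the log2 scale.

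Of the complex I genes, MT-ND3 and MT-ND5 fell strongly in USP18 cells. MT-ND3, a small membrane subunit, was at 468, 463 and 471 CPM in EV libraries with vehicle and at 321, 329 and 331 CPM with CP14 at 5 µM. In USP18 libraries it went from 467, 446 and 412 CPM to 167, 133 and 148 CPM, so that the treated groups of EV and USP18 cells were far apart although the vehicle groups overlapped. MT-ND5, a proton-pumping subunit, changed by -0.82 ± 0.06 in EV and -1.53 ± 0.06 in USP18 cells on the log2 scale. The overlapping partners MT-ND4L and MT-ND4 changed the least of the genes that fell, by -0.25 and -0.27 in EV cells and -0.54 and -0.68 in USP18 cells. MT-CYB fell by 0.56 and 1.33 on the log2 scale. The partners MT-ATP8 and MT-ATP6, of ATP synthase, fell by 0.60 and 0.64 in EV cells and by 0.93 and 1.06 in USP18 cells. With all 54 libraries fitted together MT-ND4 and MT-ND4L lost their call in EV cells (adjusted p = 0.0516 and 0.0544).

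MT-ND1 and MT-ND2, the only mRNA genes before the boundary shown above, did not follow the others. MT-ND1 rose in EV cells from 1147, 1192 and 1204 CPM to 1537, 1608 and 1451 CPM, and in USP18 cells from 967, 896 and 810 CPM to 1110, 1003 and 1024 CPM. The treated libraries were all above the vehicle libraries of their cell type, by 0.37 ± 0.05 (edgeR adjusted p = 1.86e-06) and 0.22 ± 0.05 (adjusted p = 5.72e-04) on the log2 scale. MT-ND2 rose in EV cells from 1782, 1784 and 1877 CPM to 2543, 2556 and 2391 CPM (0.46 ± 0.05, adjusted p = 2.55e-07). In USP18 cells its vehicle libraries at 1670, 1559 and 1379 CPM overlapped with the treated libraries at 1613, 1406 and 1453 CPM. Its log2 fold change there was -0.05, with a 95% interval of -0.16 to 0.06. The call of MT-ND1 in USP18 cells was lost with all 54 libraries fitted together (adjusted p = 0.0852).

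**Figure D2:**
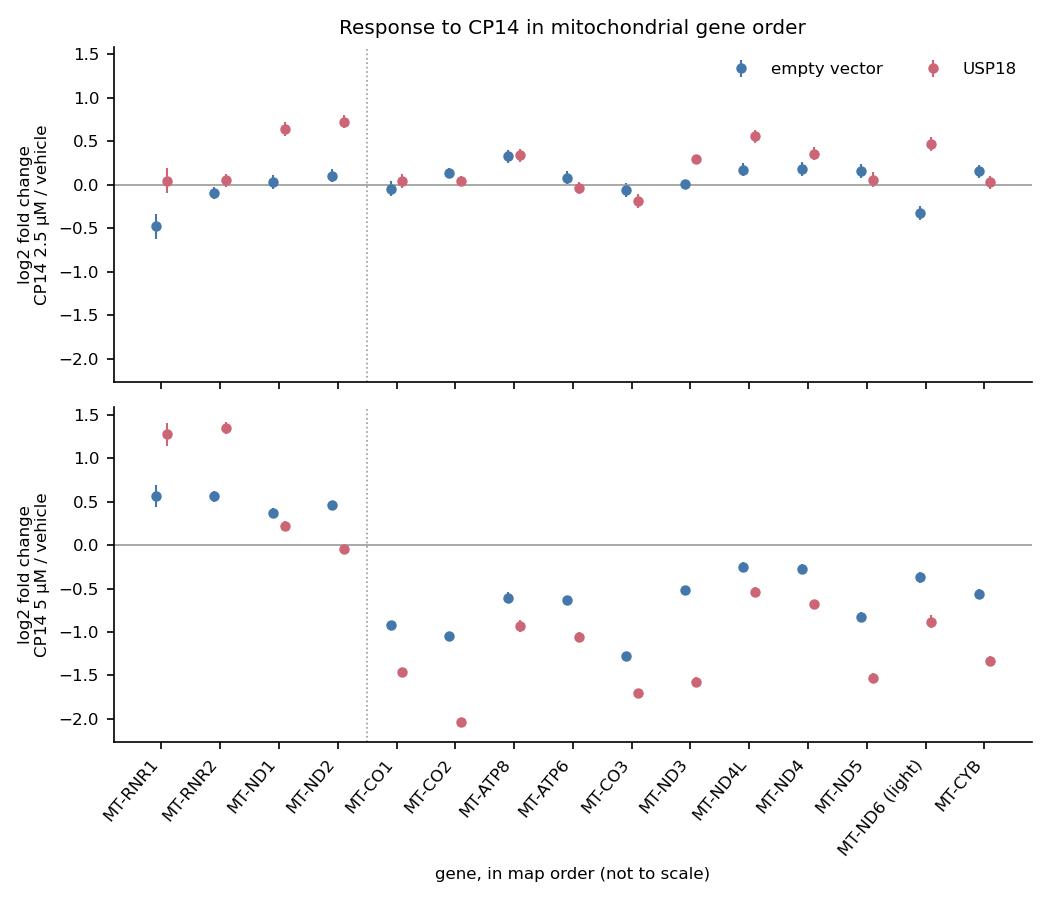
Log2 fold change from vehicle (± SE) with CP14 at 2.5 µM (first panel) and 5 µM (second panel), from 3 libraries per group. MT-RNR1, MT-RNR2 and the 13 mitochondrial mRNAs are in their order along the mitochondrial genome, EV in blue and USP18 in red. The dotted line marks the boundary between MT-ND2 and MT-CO1. At 5 µM the mRNA values before the boundary lay between -0.05 and 0.46 and those after it between -2.04 and -0.25. The rRNAs MT-RNR1 and MT-RNR2, also before the boundary, lay above that range (both 0.56 in EV cells).

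MT-ND6, on the other strand, was the least abundant mitochondrial mRNA. It went from 98.6, 94.4 and 83.2 CPM to 73.6, 71.6 and 68.5 CPM in EV cells and from 77.9, 69.1 and 67.1 CPM to 43.7, 36.9 and 36.1 CPM in USP18 cells. Both falls passed the test (-0.37 ± 0.07 and -0.88 ± 0.07), and treated and vehicle libraries did not overlap. Whether MT-ND6 rose or fell against the heavy-strand mRNAs depended on how those were summarised. Against their sum its log2 ratio was higher by 0.21 in EV cells and 0.23 in USP18 cells, and against the median of the 12 it differed by -0.30 in both. Each of these had a two-sided exact permutation p of 0.1, the smallest that 3 against 3 allows.

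The responses of the mitochondrial mRNAs to 5 µM CP14 differed between the cell types. The test of the difference (the interaction term) called 12 of 13 lower in USP18 cells, where 14.4% of all genes tested were called lower and 27.7% in either direction. The largest differences were -1.05 ± 0.08 in MT-ND3 (edgeR adjusted p = 3.41e-09), -0.99 ± 0.07 in MT-CO2 (adjusted p = 2.70e-09) and -0.77 ± 0.07 in MT-CYB on the log2 scale. MT-ND1 alone was not called (-0.15 ± 0.07, adjusted p = 0.148). The calls of MT-ND4L and MT-ATP8 were the least stable: without USP18 vehicle replicate 1 their adjusted p was 0.0661 and 0.0576, and without treated USP18 replicate 2 that of MT-ND4L was 0.0538. DESeq2 called neither of them (0.0621 and 0.0644). With all 54 libraries fitted together 7 of the 13 were called. MT-RNR1 (0.71) and MT-RNR2 (0.78) differed in the opposite direction.

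Copies of mitochondrial genes in the nuclear genome could share reads with the genes themselves. Of 394 genes named as such copies, 3 had a mean of at least 10 counts per library. MTATP6P1 held 5058 counts on average, equal to 12.0% of those of MT-ATP6, and changed with it (-0.58 in EV and -0.87 in USP18 cells with CP14 at 5 µM). MTND2P28 held 2.80% of the counts of MT-ND2 (0.60 and 0.21), and MTCO1P12 held 0.175% of those of MT-CO1 (-0.66 and -1.09). How the counting shared reads between a copy and its source was not tested.

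CP14 at 2.5 µM gave another pattern, in which MT-ND1 and MT-ND2 rose in USP18 cells while the genes after the boundary rose less or were not called. In USP18 cells 7 of the 13 were higher and none lower (32.7% of all genes were called in either direction), with a median log2 fold change of 0.29. MT-ND2 stood at 2822, 2584 and 2222 CPM, all above the vehicle libraries at 1670, 1559 and 1379 CPM (0.73 ± 0.08, edgeR adjusted p = 7.92e-07). MT-ND1 stood at 1502, 1434 and 1241 CPM (0.64 ± 0.08, adjusted p = 5.72e-06). MT-ND4L (0.56), MT-ND6 (0.47), MT-ND4 (0.36), MT-ATP8 (0.34) and MT-ND3 (0.29) were also higher. The complex IV genes were at 0.04 (MT-CO1), 0.05 (MT-CO2) and -0.18 (MT-CO3), and none of them passed the test.

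In EV cells only MT-ATP8 (0.33, adjusted p = 0.0071) and MT-ND6 (-0.32, adjusted p = 0.0095) were called by edgeR at 2.5 µM, against 15.1% of all genes. Each of those calls was lost without EV vehicle replicate 1, that of MT-ND6 also without treated EV replicate 2 and that of MT-ATP8 also without treated EV replicate 1. The difference between the cell types passed the test in 5 of 13, all higher in USP18 cells (8.0% of all genes in either direction). These were MT-ND6 (0.79), MT-ND2 (0.62), MT-ND1 (0.61), MT-ND4L (0.38) and MT-ND3 (0.29). The call of MT-ND4L was lost without any of 6 libraries taken out in turn (adjusted p 0.0505 to 0.0825), and 3 of the 5 calls stood with all 54 libraries fitted together. Of the 5 small RNAs tested, 4 were lower in EV cells (median -1.71) and 2 higher in USP18 cells (median 1.56), with 3 called higher in USP18 cells by the interaction. MT-RNR1 was lower in EV cells (-0.48, adjusted p = 0.0318), and the part of RNA selection in these values was not tested.

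The balance between MT-ND1 plus MT-ND2 and the 10 heavy-strand mRNAs after the boundary was taken as a ratio per library. This grouping was chosen after the values were seen, so the ratio is a description. In EV cells the log2 ratio was -2.89 ± 0.02 with vehicle and -1.68 ± 0.05 with CP14 at 5 µM (SD, n = 3), a difference of 1.21. In USP18 cells it was -3.12 ± 0.01 with vehicle, -2.51 ± 0.23 with CP14 at 2.5 µM and -1.72 ± 0.04 at 5 µM. The USP18 libraries at 2.5 µM were spread out (-2.26, -2.55 and -2.70) and lay wholly between the vehicle and 5 µM libraries. As shares of the 13 mRNAs, MT-ND2 rose from 7.17% to 14.7% in EV and from 6.52% to 13.6% in USP18 cells with 5 µM, and MT-CO2 went from 13.8% to 9.97% and from 14.5% to 7.63%. MT-ND4 also took a larger share, from 12.3% to 15.2% and from 12.7% to 17.2%, although its level fell.

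**Figure D3:**
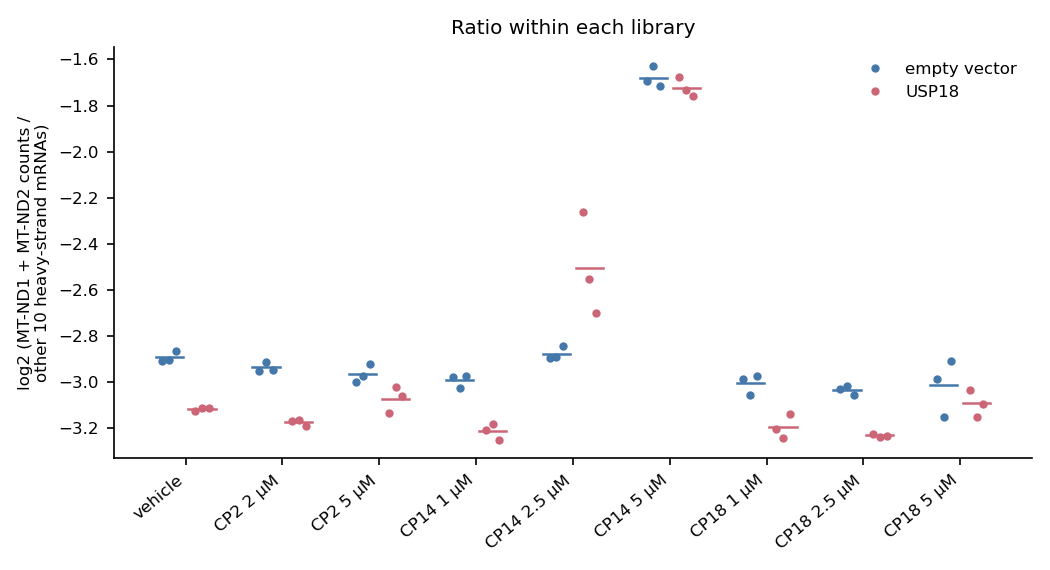
Log2 ratio of the summed counts of MT-ND1 and MT-ND2 to those of the 10 other heavy-strand mRNAs in each library, by treatment, EV in blue and USP18 in red. The 6 libraries with CP14 at 5 µM stood highest, and the USP18 libraries with CP14 at 2.5 µM, at -2.26, -2.55 and -2.70, were next.

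Mitochondrial mRNAs were called higher in USP18 cells with CP14 and with CP18 at 1 µM. Both contrasts used the same vehicle libraries, so agreement between them was not read as a result. With CP14 at 1 µM, 9 of 13 were higher in USP18 cells (15.3% of all genes in either direction) with a median of 0.21. In EV cells edgeR called 0 of 13 (0.861% of all genes), with 1 at an unadjusted p under 0.05 and 0 by DESeq2. MT-CO1 in USP18 cells stood at 6788, 6933 and 7980 CPM against 6068, 5724 and 5108 CPM with vehicle, a log2 fold change of 0.36 ± 0.06 (edgeR adjusted p = 3.35e-04). The interaction called MT-ND1 (0.27, adjusted p = 0.0281) and MT-ND4L (0.33, adjusted p = 0.0317), where 5.79% of all genes were called. The count of 9 fell to 4 without USP18 vehicle replicate 3, which held the smallest share of mitochondrial mRNA of the USP18 vehicle libraries (2.13%), to 5 without treated USP18 replicate 3, and to 3 with all 54 libraries fitted together, while the 2 interaction calls ranged from 0 to 12 over the alternatives. Of the 6 small RNAs tested, none was called in EV cells (median -2.24) and 4 were higher in USP18 cells (median 2.78), the interaction called all 6, and their part in these results was not tested.

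CP18 at 1 µM gave opposite directions in the cell types. In USP18 cells 11 of 13 were higher (15.7% of all genes in either direction) with a median of 0.38. In EV cells 4 of 13 were lower, where 0.368% of all genes were called, with a median of -0.34. MT-ND1 stood at 910, 1057 and 813 CPM in EV cells, below all 3 vehicle libraries (-0.35 ± 0.07, edgeR adjusted p = 0.043), and at 1070, 1228 and 1270 CPM in USP18 cells, above all 3 vehicle libraries (0.42 ± 0.07, adjusted p = 0.00105). MT-ND3 was at 379, 375 and 334 CPM in EV cells (-0.37 ± 0.05, adjusted p = 0.00364) and at 425, 458 and 480 CPM in USP18 cells, where it was not called. The other EV calls were MT-ND2 (-0.47) and MT-CO2 (-0.45). The mitochondrial rRNAs had the same signs, with MT-RNR1 at -0.71 (adjusted p = 0.0417) and MT-RNR2 at -0.40 (adjusted p = 0.0772) in EV cells and at 0.28 and 0.18, neither called, in USP18 cells. So did the small RNAs without a poly(A) tail, with a median of -2.34 over the 6 tested in EV cells, where RN7SL2 was called (-2.43, adjusted p = 0.0471), and of 1.43 in USP18 cells, where RNVU1-18 was called. The interaction called both rRNAs and 5 of those 6 higher in USP18 cells, and the part of RNA selection in these values was not tested. Of the epithelial markers, KRT8 (0.08), KRT18 (0.11) and KRT19 (0.26) were higher in USP18 cells. KRT7, CDH1 and EPCAM were not called there, and the part of these markers was not tested. The interaction called 12 of 13 higher in USP18 cells, against 7.19% of all genes in either direction, from 0.41 in MT-ND3 to 0.77 in MT-ND1, with MT-ND6 the exception (0.20, adjusted p = 0.562).

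The EV libraries with CP18 at 1 µM were uneven, holding 2.05%, 2.32% and 1.69% of their counts in the 13 mRNAs. The 4 EV calls became 1 without treated replicate 3, 7 without treated replicate 2, 2 without any single vehicle library, 12 with no filter on low counts and 0 with all 54 libraries fitted together. The 11 USP18 calls became 7 without USP18 vehicle replicate 2 or 3 or treated replicate 2, and 7 with DESeq2. The 12 interaction calls were 12 or 13 under every alternative run.

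At 2.5 µM CP18 raised 4 of 13 in EV cells (5.96% of all genes in either direction) and 7 of 13 in USP18 cells (14.2%), and the interaction called none by edgeR or DESeq2 (0.197% of all genes), with 1 at an unadjusted p under 0.05. MT-ATP8 had the largest values in both (0.42 ± 0.08, edgeR adjusted p = 0.00239, and 0.49 ± 0.08, adjusted p = 2.15e-04). These counts ranged from 0 to 10 and from 1 to 12 over the alternatives, the former falling to 1 without EV vehicle replicate 1 or treated EV replicate 1 or 3 and to 2 without EV vehicle replicate 2 or treated EV replicate 2. The latter fell to 1 without USP18 vehicle replicate 3 and to 3 without treated USP18 replicate 1, and rose to 11 without USP18 vehicle replicate 1 or treated USP18 replicate 3. Of the 5 small RNAs tested, 4 were lower in EV cells at 2.5 µM (median -1.77) and 5 at 5 µM (-2.24), while in USP18 cells 1 was higher at 2.5 µM and none was called at 5 µM. Of the epithelial markers, CDH1 (-0.25) and KRT8 (-0.08) were lower in EV cells at 2.5 µM. In EV cells at 5 µM CDH1 (-0.34) and KRT8 (-0.13) were lower and KRT7 (0.19) was higher. In USP18 cells at 5 µM CDH1 (-0.21) was lower and KRT7 (0.16) higher. The part of the small RNAs and of these markers was not tested. At 5 µM CP18, MT-ND6 in EV cells was the only call, at 112, 122 and 129 CPM against 98.6, 94.4 and 83.2 CPM with vehicle (0.40 ± 0.07, adjusted p = 0.0019), where 8.4% of all genes in EV and 10.7% in USP18 cells were called. The remaining values at that dose ran from -0.15 to 0.23, and the interaction called none of the 13 by edgeR or DESeq2 (0.268% of all genes), with 1 at an unadjusted p under 0.05.

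With CP2 at 2 or 5 µM no mitochondrial mRNA passed the threshold in either cell type. By edgeR and by DESeq2 0 of 13 were called, with 2 and 8 at an unadjusted p under 0.05 in EV and USP18 cells at 2 µM and 0 in both at 5 µM. With no filter on low counts, 6 were lower and 1 higher in EV cells and 9 lower and 1 higher in USP18 cells at 2 µM, and at 5 µM 3 were higher and 1 lower and 5 higher and 1 lower. With the filter, 1.84% and 1.13% of all genes were called at 2 µM and 12.1% and 19.0% at 5 µM in EV and USP18 cells. The share of all genes without the filter is not given, so the counts without it cannot be set against genes at large. At 5 µM the log2 fold changes ran from -0.16 to 0.24, with 95% intervals reaching from -0.42 to 0.48. The interaction called none of the 13 by edgeR or DESeq2 at 2 µM (0.0569% of all genes) or 5 µM (0.92%), and none had an unadjusted p under 0.05. The EV libraries with CP2 at 5 µM were uneven, with MT-CO1 at 7849, 5495 and 6789 CPM.

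**Figure D4:**
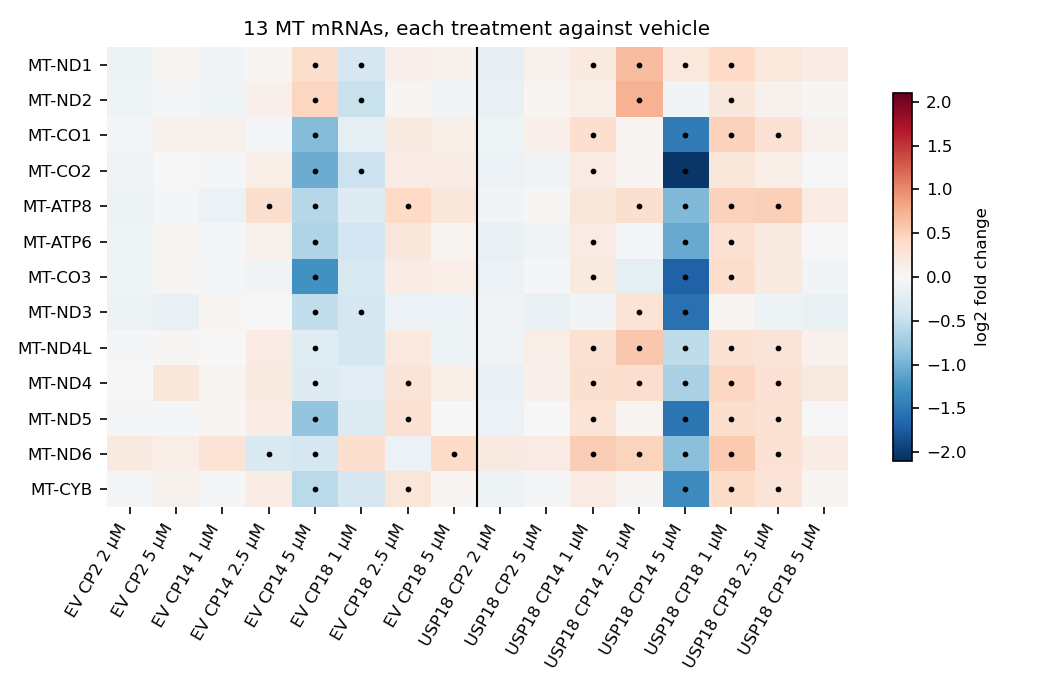
Log2 fold change from the vehicle of the same cell type for the 13 mitochondrial mRNAs under the 16 treatments of EV and USP18 cells, as colour, with a dot where the edgeR adjusted p was under 0.05. With CP14 at 5 µM, values after MT-ND2 in map order were negative in both cell types, and with CP18 at 1 µM the EV and USP18 columns differed in sign for all of the mRNAs but MT-ND6.

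Compounds given at the same dose were set against each other directly, in 10 comparisons over the 2 cell types. No structure is given for the codes, so these are differences between compounds as coded. The treatments compared with vehicle share its libraries, which is why agreement between those contrasts was not read as a result, whereas the direct comparisons use treated libraries only. At 5 µM, CP14 stood apart from CP18 and from CP2. Against CP18 it gave 2 higher and 10 lower of 13 in EV cells (57.5% of all genes called in either direction) and 0 higher and 11 lower in USP18 cells (64.9%), with medians of -0.69 and -1.09. Against CP2 it gave 2 higher and 11 lower in EV cells (59.4%) and 0 and 11 in USP18 cells (67.5%), with medians of -0.56 and -1.07. MT-CO2 differed from its CP18 level by -1.20 (95% interval -1.34 to -1.07) in EV and by -2.04 (-2.17 to -1.90) in USP18 cells. MT-ND2 differed by 0.52 (0.34 to 0.70) in EV cells and by -0.08 (-0.26 to 0.10) in USP18 cells, where it was not called.

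CP18 and CP2 at 5 µM gave no call among the 13 in either cell type, by edgeR or by DESeq2, and none at an unadjusted p under 0.05 (0.0257% and 0.00641% of all genes were called in EV and USP18 cells). With no filter on low counts 2 were called higher with CP18 in EV cells. The 95% intervals reached modest differences, such as -0.22 to 0.27 around 0.03 for MT-CO1 and -0.18 to 0.46 around 0.14 for MT-CO2 in EV cells. At 2.5 µM CP14 and CP18 did not differ past the threshold in any of the 13 in EV cells by edgeR or DESeq2 (1.8% of all genes called, and 3 of the 13 at an unadjusted p under 0.05), with MT-ND2 at 0.07 (95% interval -0.10 to 0.24). In USP18 cells 4 were higher with CP14, namely MT-ND2 (0.65, interval 0.48 to 0.82), MT-ND1 (0.43), MT-ND3 (0.41) and MT-ND4L (0.29), and 3 were lower, namely MT-CO3 (-0.37), MT-ND5 (-0.26) and MT-CYB (-0.24), where 28.2% of all genes were called. The lower calls numbered 0 to 7 over the alternatives, and with no filter on low counts 5 were lower in EV cells. At 1 µM, MT-ND3 in EV cells was the only call (0.41, interval 0.31 to 0.51, edgeR adjusted p = 0.00181, with 0.0191% of all genes called), and 11 had an unadjusted p under 0.05. In USP18 cells edgeR and DESeq2 called none (0.0191% of all genes), with 3 at an unadjusted p under 0.05. With no filter these became 12 higher in EV and 7 lower in USP18 cells, so the comparison at 1 µM depended on the filter.

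None of the nuclear NDUF genes differed by more than 2-fold from vehicle under any treatment. They serve as a comparison for the MT-ND genes, since those subunits and most NDUF subunits enter the same enzyme. The other mitochondrial mRNAs encode subunits of other complexes. With vehicle, 18 of 37 were lower and 6 higher in USP18 than in EV cells, with a median of -0.10, where 57.6% of all genes were called. NDUFB10, an accessory subunit of the membrane arm, was at 127, 129 and 130 CPM in EV and 88.5, 83.2 and 87.6 CPM in USP18 libraries (-0.57, edgeR adjusted p = 4.64e-11). NDUFA12, a peripheral accessory subunit, was at 56.6, 59.1 and 55.2 CPM against 71.9, 71.4 and 69.1 CPM (0.32). In both the groups did not overlap, with NDUFB10 lower and NDUFA12 higher in USP18 cells. NDUFAB1, the mitochondrial acyl carrier protein, was also lower (-0.41), as was NDUFB3 (-0.37), while NDUFA9 (0.17) and NDUFV2 (0.16) were higher. The 6 higher calls became 3 with DESeq2, with all 54 libraries fitted together, and without EV vehicle replicate 1 or USP18 vehicle replicate 3.

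With CP14 at 5 µM most NDUF genes fell. In each cell type 26 of 37 were lower and 3 higher, with medians of -0.21 in EV and -0.30 in USP18 cells, where 32.1% and 34.3% of all genes were called lower. The 37 genes made up a mean of 0.266% of the counts with vehicle and 0.238% with CP14 in EV cells, and 0.252% and 0.215% in USP18 cells. NDUFB3, an accessory subunit of the membrane arm, was at 65.4, 63.7 and 65.7 CPM in EV libraries with vehicle and at 38.2, 40.7 and 43.2 CPM with CP14. In USP18 libraries it went from 51.8, 50.2 and 49.1 CPM to 26.3, 26.8 and 24.0 CPM. It was the lowest of the 37 in both cell types by log2 fold change, at -0.68 ± 0.05 (edgeR adjusted p = 3.83e-10) and -0.98 ± 0.06 (adjusted p = 2.19e-12), and the groups did not overlap.

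NDUFB4, also of the membrane arm, went from 89.2, 95.5 and 93.0 CPM to 62.1, 65.2 and 68.7 CPM in EV cells and from 97.1, 98.5 and 101 CPM to 53.1, 48.2 and 52.1 CPM in USP18 cells. The fall was larger in USP18 cells (-0.96 ± 0.05, edgeR adjusted p = 8.13e-14) than in EV cells (-0.51 ± 0.05), with an interaction of -0.45. NDUFA9, an accessory subunit at the foot of the peripheral arm, went from 73.6, 73.0 and 74.7 CPM to 50.7, 54.6 and 57.1 CPM in EV cells (-0.45) and from 82.4, 81.0 and 85.2 CPM to 50.9, 44.2 and 50.0 CPM in USP18 cells (-0.78). Both genes had treated libraries wholly below vehicle libraries in each cell type. NDUFA2 (-0.65) and NDUFB1 (-0.55) were the other lowest calls in EV cells.

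NDUFS4 and NDUFB9 were higher with CP14 at 5 µM in both cell types. NDUFS4, an accessory subunit near the NADH-oxidising module, was at 52.7, 52.8 and 50.3 CPM with vehicle and 59.7, 59.2 and 57.8 CPM with CP14 in EV cells (0.18). In USP18 cells it was at 45.1, 50.3 and 48.0 CPM and at 56.1, 55.6 and 59.4 CPM (0.25). NDUFB9, a membrane arm subunit, changed by 0.21 in both. For both genes treated and vehicle libraries did not overlap in either cell type, although the changes were small. Of all genes tested, 63.2% in EV and 68.6% in USP18 cells were called at this dose. NDUFV3 was higher in USP18 cells (0.24), from 26.9, 27.2 and 26.5 CPM to 29.0, 33.0 and 33.5 CPM. NDUFA13 was higher in EV cells (0.13, edgeR adjusted p = 0.0324), a call that was lost without EV vehicle replicate 1 or 2 or treated replicate 2 (adjusted p 0.0751 to 0.144).

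By role, the falls with CP14 at 5 µM were spread over the enzyme, where 32.1% of all genes were called lower in EV and 34.3% in USP18 cells. Of the 6 core subunits, which form the catalytic core of the peripheral arm, 5 were lower in EV and 4 in USP18 cells, among them NDUFS3 (-0.35 and -0.60), NDUFV2 (-0.32 and -0.50) and NDUFS1 (-0.32 and -0.44). NDUFS8 was not called in either (-0.06 and -0.10). Of the 12 accessory subunits with an A name, 8 and 9 were lower, and of the 11 with a B name, 8 were lower in each cell type. NDUFC2 was lower in both (-0.34 and -0.66) and NDUFC1 was called in neither (-0.04 and 0.11). Of the 4 accessory S and V genes, NDUFS5 (-0.39 and -0.70) and NDUFS6 (-0.16 and -0.17) were lower. NDUFA4, now counted as a subunit of complex IV, was lower as well (-0.33 and -0.34), as was NDUFAB1 (-0.22 and -0.36).

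**Figure D5:**
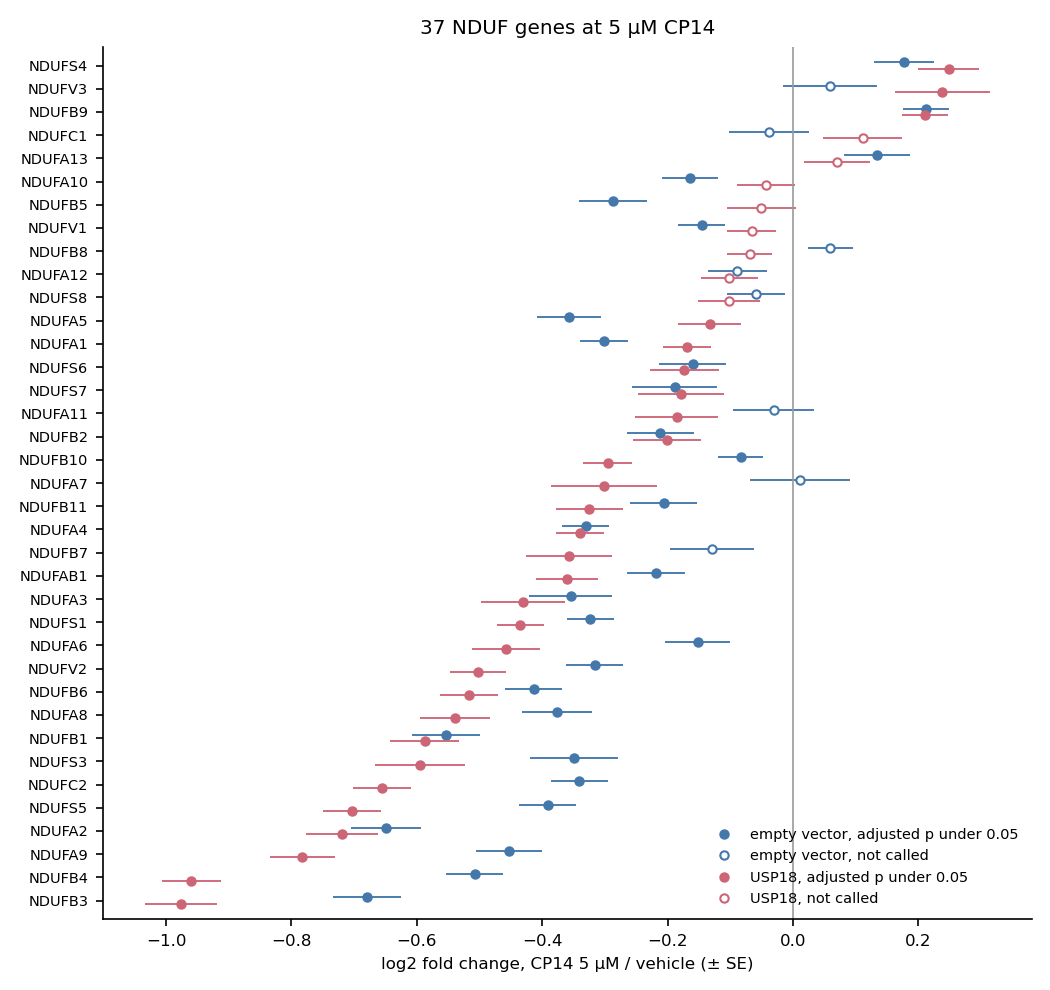
Log2 fold change from vehicle (± SE) of the 37 NDUF genes with CP14 at 5 µM in EV (blue) and USP18 cells (red), from 3 libraries per group, with filled points where the edgeR adjusted p was under 0.05. Most points lay below 0, down to -0.98 for NDUFB3 in USP18 cells, and NDUFS4 and NDUFB9 lay above 0 in both.

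The difference between the cell types at 5 µM CP14 was called in 10 of 37 NDUF genes, 8 with a lower and 2 with a higher response in USP18 cells, where 27.7% of all genes tested were called. The lower ones were NDUFB4 (-0.45), NDUFA9 (-0.33), NDUFA6 (-0.31), NDUFC2 (-0.31), NDUFS5 (-0.31), NDUFB3 (-0.30), NDUFB10 (-0.21) and NDUFV2 (-0.19). The higher ones, NDUFB5 (0.24) and NDUFA5 (0.22), fell in EV cells. The 2 higher calls became 0 without EV vehicle replicate 1 and 1 without any of 5 other libraries taken out in turn.

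The upstream sequence of NDUFB4 is shown because this gene had the largest interaction among the NDUF genes and held the motif GCGCATG, which is part of the binding site of NRF1, a regulator of nuclear genes for mitochondrial proteins. It covers the 250 bases before the gene's start from the RefSeq promoter table (GRCh38.p14, chr3:120596086-120596335, plus strand), with capitals marking the motif where it matched on both strands in overlapping positions.
NDUFB4 upstream: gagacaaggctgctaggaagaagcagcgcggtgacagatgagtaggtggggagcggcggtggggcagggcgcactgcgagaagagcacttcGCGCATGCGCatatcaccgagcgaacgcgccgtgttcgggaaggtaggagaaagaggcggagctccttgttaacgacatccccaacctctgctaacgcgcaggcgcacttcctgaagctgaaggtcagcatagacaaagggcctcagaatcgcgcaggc
Of the 37 NDUF genes 32 were matched in that table. With both strands read, GCGCATG was in 4 of the 32 windows (12.5%), those of NDUFA6, NDUFB4, NDUFS6 and NDUFS7, against 3.77% of all 35116 windows of that length. The ETS-type motif CCGGAAG was in 5 (15.6% against 8.52%), those of NDUFA1, NDUFA13, NDUFB7, NDUFS1 and NDUFS3, and CCAAT was in 8 (25.0% against 32.0%). NDUFA6 held both GCGCATG and CCAAT. A match describes the letters in this window only.

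The NDUF genes were also read at the lower doses. With CP14 at 2.5 µM, 6 of 37 were lower in EV cells (15.1% of all genes in either direction), led by NDUFA7 (-0.46), and in USP18 cells 6 were lower and 2 higher (32.7%). Of the 6 epithelial markers, KRT8, KRT18 and CDH1 were lower and KRT7 and KRT19 higher in EV cells at this dose, and KRT8 and KRT18 lower and KRT7 and KRT19 higher in USP18 cells. COL1A1 was lower in EV cells (-0.43) and COL3A1 in USP18 cells (-1.09), and the part of these changes was not tested. NDUFA4, NDUFB11 and NDUFC2 were lower in both. The EV count became 2 without EV vehicle replicate 2, 3 without treated EV replicate 1 and 3 with all 54 libraries fitted together. With CP14 at 1 µM, NDUFA4 (-0.16) was the only call in EV cells, and 5 were higher and 1 lower in USP18 cells (0.861% and 15.3% of all genes), with 2 interaction calls, both higher in USP18 cells (5.79%). The 5 higher calls became 1 without USP18 vehicle replicate 1, 2 without treated USP18 replicate 1, and 3 without any of the 4 other USP18 libraries of that comparison.

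CP18 at 1 µM raised 11 of 37 NDUF genes in USP18 cells, where 7.74% of all genes tested were called higher, with a median of 0.09. It moved none in EV cells by edgeR or DESeq2 (4 at an unadjusted p under 0.05, with 0.368% of all genes called). The epithelial markers KRT8, KRT18 and KRT19 were also higher in USP18 cells, as given above, and their part was not tested. NDUFS6, an accessory subunit that binds zinc, stood at 71.1, 68.8 and 78.0 CPM against 55.1, 62.6 and 55.4 CPM with vehicle in USP18 cells, without overlap (0.33, edgeR adjusted p = 3.96e-04). NDUFA1 (0.26), NDUFAB1 (0.22) and NDUFC1 (0.21) were next. The interaction called NDUFS6 (0.32), NDUFC1 (0.27), NDUFAB1 (0.26) and NDUFA9 (0.21) higher and NDUFS1 (-0.16) lower in USP18 cells (7.19% of all genes in either direction). The 11 calls became 4, 7 or 5 without USP18 vehicle replicate 1, 2 or 3, and 6 without treated replicate 3. With CP18 at 2.5 µM, NDUFA2 (-0.16) and NDUFA4 (-0.13) were lower in EV cells, and 6 were higher and 1 lower in USP18 cells (5.96% and 14.2% of all genes). NDUFA4 was the gene lower in both, and NDUFS6 was the highest in USP18 cells (0.22). With CP18 at 5 µM none of the 37 was called in either cell type by edgeR (7 and 4 at an unadjusted p under 0.05), while DESeq2 called 3 in EV and 0 in USP18 cells. Over all genes 8.4% and 10.7% were called there. With CP2 at 5 µM, NDUFA12 was higher in both cell types (0.14 and 0.12) and NDUFV2 lower in USP18 cells (-0.18). These were the only NDUF calls, where 12.1% of all genes in EV and 19.0% in USP18 cells were called. DESeq2 called NDUFA12 in neither cell type. With CP2 at 2 µM 0 of 37 were called in either cell type by edgeR or DESeq2 (5 and 2 at an unadjusted p under 0.05, with 1.84% and 1.13% of all genes called). The interaction called no NDUF gene by edgeR or DESeq2 with CP2 at 2 or 5 µM (4 and 1 at an unadjusted p under 0.05) or with CP18 at 2.5 or 5 µM (6 and 1).

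In the direct comparisons at 5 µM, CP14 gave 22 lower and 2 higher of 37 against CP18 in EV cells and 25 and 2 in USP18 cells (57.5% and 64.9% of all genes called in either direction). Against CP2 it gave 26 and 2 in EV cells and 27 and 2 in USP18 cells (59.4% and 67.5%). NDUFB3 against CP2 in USP18 cells (-1.02) was the only NDUF difference beyond 2-fold. NDUFS4 and NDUFB9 were the higher genes in all 4. In each cell type the comparisons with CP18 and CP2 shared the CP14 libraries, so agreement between them was not read as a result. CP18 and CP2 at 5 µM differed in none of the 37 by edgeR or DESeq2 (2 and 1 at an unadjusted p under 0.05), with 95% intervals within -0.43 to 0.33 in EV cells and -0.36 to 0.58 in USP18 cells. At 2.5 µM, 15 of 37 were lower with CP14 than with CP18 in USP18 cells (28.2% of all genes in either direction), from -0.27 in NDUFB6 to -0.12 in NDUFA4, and 1 in EV cells (1.8%). The count of 15 became 9 without CP14 replicate 1 and 6 without CP18 replicate 1. At 1 µM edgeR called none of the 37 between CP14 and CP18 in either cell type (8 and 5 at an unadjusted p under 0.05 in EV and USP18 cells), and DESeq2 called 0 and 1.

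Other genes that serve the respiratory chain were read with CP14 at 5 µM in EV and then USP18 cells, against a median near 0.01 over all genes, of which 63.2% and 68.6% were called, 32.1% and 34.3% as lower. All 4 subunits of complex II, which passes electrons from succinate, were lower in both, with SDHA at -0.75 and -0.63. Of 9 nuclear subunits of complex III, 7 were lower in each, with the Rieske protein gene UQCRFS1 at -0.63 and -0.92. Of 15 nuclear subunits of ATP synthase, 12 were lower in each, with ATP5MC3 of the membrane ring at -0.99 and -0.86 and ATP5F1A of the catalytic head at -0.69 and -0.92. Of 10 nuclear subunits of complex IV, 6 were lower and 1 higher in EV cells and 5 lower and 4 higher in USP18 cells, with COX7B at -0.73 and -0.58. The nuclear complex IV genes had a median of -0.30 in EV and -0.10 in USP18 cells, while the 3 mitochondrially encoded ones lay at -0.92 or below and -1.47 or below.

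Calls of the complex I assembly factors went both ways and numbered 5 higher and 7 lower of 18 in EV cells (63.2% of all genes called) and 6 and 10 in USP18 cells (68.6%). FOXRED1 (-0.88 and -0.86) and ACAD9 (-0.72 and -1.18) were lower, and NDUFAF2 was higher (0.64 and 0.28). Among 16 genes for processing and stability of mitochondrial RNA, 7 were lower in EV and 11 in USP18 cells (32.1% and 34.3% of all genes) and none was higher by edgeR, including the tRNA-end nuclease gene ELAC2 (-0.42 and -0.53), the RNase P subunit gene TRMT10C (-0.38 and -0.50) and FASTKD3 (-0.53 and -0.54). The interaction was called in 3 of the 16, PNPT1 (-0.46), SLIRP (-0.23) and LRPPRC (-0.16), all lower in USP18 cells, where 14.4% of all genes were called lower. Of 11 genes for transcription and replication of mitochondrial DNA, 4 were higher and 4 lower in EV cells and 4 and 3 in USP18 cells, shares near those of all genes (63.2% and 68.6%). TFAM, which packages mitochondrial DNA and starts its transcription, was lower (-0.62 and -0.50), as was the RNA polymerase gene POLRMT (-0.38 and -0.49), and POLG2 was higher (0.55 and 0.32). Among 8 nuclear regulators, 5 were lower and 1 higher in EV cells and 4 lower and 3 higher in USP18 cells (63.2% and 68.6% of all genes called). PPARGC1A (-1.66 and -1.79), GABPA (-0.60 and -0.59) and NRF1 (-0.59 and -0.56) were lower, and GABPB1 (0.49 and 0.30), which pairs with GABPA, was higher. PPARGC1A was also lower in USP18 than in EV cells with vehicle (-1.34).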

How the data were processed

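RNA-seq was measured in 54 libraries of A549 cells. The values are RSEM expected counts per gene, deposited by the authors. Per the labels and the submitters' processing notes, reads were trimmed with cutadapt 1.18 and aligned to hg38 with STAR 2.7.0f, and RSEM 1.3.1 was used. The notes and the study's methods differ on the RSEM version, the annotation and the library kit. RSEM shares ambiguous reads between genes, which bears on the overlapping and copied mitochondrial genes. Of the deposited values 94.0% were whole numbers (tolerance 1e-09), and all were rounded before testing.

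Groups came from the labels, with 3 libraries each. For each compound and dose, edgeR 4.0.16 (R 4.3.3) was fitted to 12 libraries, the treated and vehicle groups of both cell types. The vehicle comparison used 6 libraries, and compounds at a matched dose were compared over 12 treated libraries. Genes were kept by filterByExpr (minimum count 10, minimum total 15), scaled by TMM and tested with glmQLFit and glmQLFTest, with Benjamini-Hochberg adjustment over all genes tested. A call is an adjusted p under 0.05, and the interaction is the USP18 response minus the EV response. Shares of all genes called are those of this main fit and are not given for the alternatives below. The SE was the absolute log2 fold change divided by the square root of the test's F statistic. Intervals at 95% used this SE and the total degrees of freedom of the quasi-likelihood test, residual plus prior. CPM used TMM over all 54 libraries, and values per kilobase used the union of exons in GENCODE v44, which held 58472 of the 58870 identifiers. Ratios and shares per library were compared by two-sided exact permutation tests. The fitting code was tested on simulated data.

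The 13 mitochondrial genes were all named. Of the NDUF genes the rule named the 3 highest and 3 lowest calls with vehicle and at each 5 µM dose, and of each further list up to 3 calls of the largest change. Other genes were named after their values were seen. Overlap between groups was described for named genes only, and the share of all genes without overlap is not given. The members and lists were chosen with earlier results of these data known. The alternatives were DESeq2 1.42.0, RLE size factors, no filter, at least 10 counts in every library, the replicate number as a block, the compared groups alone, all 54 libraries together, mitochondrial genes left out of the table, other denominators, and each library left out in turn. Of 22 mitochondrial tRNA genes listed, 0 passed the filter, and they are not described.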

Additional observations from a re-analysis of the deposited data

Results flagged for a closer look

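These results are repeated because the response differed between EV and USP18 cells by the test of the difference itself (edgeR's interaction term, adjusted p under 0.05). With CP14 at 5 µM, where 27.7% of all genes tested were called, 12 of the 13 mitochondrial mRNAs had a lower response in USP18 cells (7 with all 54 libraries fitted together), and of the 37 NDUF genes 8 had a lower and 2 a higher one, so the NDUF genes were called about as often as genes at large. With CP14 at 2.5 µM (8.0% of all genes), 5 mitochondrial mRNAs had a higher response in USP18 cells (3 with all 54 libraries fitted together). With CP14 at 1 µM (5.79% of all genes), 2 mitochondrial mRNAs and 2 NDUF genes had a higher one. The former count ranged from 0 to 12 over the alternatives, and the latter share was close to that of all genes. With CP18 at 1 µM (7.19% of all genes), 12 mitochondrial mRNAs and 4 NDUF genes had a higher and 1 NDUF gene a lower response in USP18 cells. The level of USP18 itself moved in the treated USP18 cells at all 4 of these doses, by 0.64, -0.14 and -0.33 with CP14 at 5, 2.5 and 1 µM and by -0.41 with CP18 at 1 µM on the log2 scale, and its part was not tested.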

How the results depend on the processing

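DESeq2, RLE size factors and the replicate block moved none of the median log2 fold changes of the 2 gene families by more than the spread between libraries. Replicate numbers did not pair the samples (correlations of deviations -0.137 to 0.110 over 51 pairs of groups). With the replicate block the mitochondrial median for CP14 at 5 µM was -0.56 in EV and -1.05 in USP18 cells, with -0.50 for the interaction. The NDUF median for CP14 against CP18 at 5 µM in USP18 cells (-0.27) was -0.30 with no filter and -0.29 with the compared groups alone. That against CP2 (-0.30) was -0.31 with no filter, -0.28 with at least 10 counts in every library or with mitochondrial genes left out, and -0.29 with all 54 libraries. MT-ND6 against the median of the other 12 was -0.30 in both cell types, against 0.21 and 0.23 with their sum.

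With each library left out in turn, the NDUF medians ran from -0.14 to -0.077 for USP18 against EV with vehicle. For CP14 at 5 µM they ran from -0.24 to -0.19 in EV cells, -0.32 to -0.26 in USP18 cells and -0.11 to -0.041 for the interaction. For CP14 at lower doses they ran from -0.053 to -0.041 (EV, 1 µM), 0.076 to 0.11 (interaction, 1 µM) and -0.074 to -0.016 (USP18, 2.5 µM). For CP2 they ran from -0.049 to -0.028 (EV, 2 µM), 0.0093 to 0.045 (interaction, 2 µM), -0.0055 to 0.031 (USP18, 5 µM) and -0.022 to 0.062 (interaction, 5 µM). For the interaction with CP18 at 5 µM they ran from -0.025 to 0.066, changing sign as did those for CP2 at 5 µM. Between compounds in USP18 cells at 5 µM they ran from -0.34 to -0.25 (CP14 against CP2) and -0.019 to 0.0067 (CP18 against CP2). The mitochondrial medians ran from 0.14 to 0.24 (CP18 at 2.5 µM, EV), and for CP14 against CP2 at 5 µM from -0.80 to -0.49 in EV and -1.17 to -0.87 in USP18 cells.

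Counts of calls with CP14 at 5 µM held within 9 to 11 lower mitochondrial mRNAs in EV cells and 11 in USP18 cells, and 24 to 26 and 22 to 27 lower NDUF genes. Counts at 1 and 2.5 µM moved more, as given beside them, and with no filter on low counts several mitochondrial counts rose. The causes were not tested. Of 1489 values recomputed for 103 called fold changes of single genes, 1407 kept their direction and call, 82 lost their call and 0 turned direction. With 3 libraries per group the exact permutation tests of shares and ratios cannot go below 0.1.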
